A study of Rattus norvegicus with 16 samples.

Results

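The proteasome is the chambered protease that degrades ubiquitin-tagged proteins, and its subunit genes are described here across rat aortic smooth muscle cells with and without knockdown of the RNA acetyltransferase Nat10. Members were the protein-coding genes whose symbol starts with Psma, Psmb, Psmc, Psmd, Psme, Psmf or Psmg followed by a digit and whose mean level over 6 input RNA libraries was at least 1 FPKM (fragments per kilobase, adjusted by library). The rule took 47 of the 11725 protein-coding genes at that level. One of the 47, Psmc3ip, shares only the name: it encodes a partner protein in meiotic recombination, stood at 13.4 ± 3.69 FPKM in control and 13.8 ± 3.05 FPKM in knockdown cells (SD, n = 3 libraries each), and was left out of the counts. This left 46 genes, among 32883 genes listed. Another 2 genes with a matching name fell below the level: Psmb11, the catalytic subunit of thymic epithelium, had a mean of 0.0672 FPKM, and Psma8, an alpha subunit of the testis, had a mean of 0.0119 FPKM. The member with the lowest mean above it was Psmb8, at 1.96 FPKM.

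The 20S core of the proteasome is a barrel of stacked rings, with alpha subunits at the outer faces and beta subunits inside, some of which carry the proteolytic sites. A 19S regulatory particle caps the barrel: its base unfolds substrates with a ring of ATPases, and its lid removes ubiquitin chains. Interferon can replace the catalytic beta subunits with inducible ones, giving the immunoproteasome, and other caps (the PA28 complexes and PA200) can take the place of the 19S particle. In many cells the transcription factor Nfe2l1 raises proteasome gene transcription when degradation is impaired, Nfe2l2 can do so under oxidative stress, and smooth muscle cells use the proteasome in the turnover of contractile and cell cycle proteins.

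All cells were primary aortic smooth muscle cells of wild-type rats in medium with 20% serum. They carried an adenovirus for 48 h, either a control virus or one expressing a short hairpin RNA against Nat10, and each arm gave 3 input RNA libraries and 3 libraries immunoprecipitated for N4-acetylcytidine (ac4C), the modification that NAT10 places on cytidines of RNA. In a separate assay on cells of the same kind, RNA bound to NAT10 protein was recovered in 3 libraries (NAT10 RIP), for which the labels give no knockdown. The design speaks of biological repeats and names no separate animals. A p-value here therefore reflects only how these libraries vary, which may be technical.

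The input libraries held 6417941 to 12065991 fragments. Nat10 itself, the check of the labels, stood at 7.69, 9.22 and 9.95 FPKM in control libraries 1 to 3 and at 4.38, 3.68 and 4.58 FPKM in knockdown libraries 1 to 3, with no overlap (log2 difference -0.93, SE 0.19). Smooth muscle markers were present in all 6 libraries, with summed levels of 5240 to 6923 FPKM in control and 895.9 to 3859 FPKM in knockdown cells. All 11 of these markers that were tested stood lower after knockdown, 9 of them at an unadjusted limma p under 0.05 and 0 at an adjusted one. Summed markers of endothelial cells ran from 49.58 to 68.8 FPKM in control and from 48.97 to 103.9 FPKM in knockdown libraries, those of leukocytes from 14.43 to 24.85 and from 13.02 to 32.28 FPKM, those of adventitial fibroblasts from 597.4 to 675.3 and from 339.2 to 601.3 FPKM, and those of Schwann and neural cells from 8.064 to 14.39 and from 15.47 to 21.94 FPKM. Eng, which cells other than endothelium also express, gave most of the endothelial sum (47.8 to 102.3 FPKM), while the endothelial marker Emcn and the T cell marker Cd3e were listed at 0 in all 6 libraries. Of the 2 endothelial markers tested, Eng was higher after knockdown (log2 difference 0.31). Erg was lower at an unadjusted limma p under 0.05 (log2 difference -1.21), at 1.38, 3.94 and 4.27 FPKM in control and 0.683, 0.051 and 1.81 FPKM in knockdown libraries. The smooth muscle marker Des lay below 1 FPKM. Of the 8 fibroblast markers tested, 7 were lower after knockdown, 3 of them at an unadjusted limma p under 0.05 (median log2 difference -0.55). Of the 2 Schwann and neural markers tested, Tubb3 was higher at an unadjusted limma p under 0.05 (log2 difference 0.73) and S100b was lower (-0.22). The part of these marker differences in any value below was not tested. Fewer cells of a type and less RNA per cell cannot be told apart in these bulk samples. Control libraries 2 and 3 were more alike than any other pair (median chi-square per gene 0.76, against 3.64 to 12.3), though they differed by more than counting noise.

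As a set, the subunit genes stood at nearly the same level with and without knockdown of Nat10. The median of the 46 mean levels was 40.4 FPKM, from 1.96 FPKM for Psmb8 to 91.6 FPKM for Psmb4. Their summed level was 1966, 1882 and 1848 FPKM in the control libraries and 1893, 1820 and 1884 FPKM in the knockdown libraries, so the groups overlapped. On the log2(FPKM + 1) scale, 25 members were higher and 21 lower after knockdown, and their median difference was 0.009, beside -0.015 over all 13450 genes tested. Differences within 0.25 on that scale were found for 31 of the 46 members (67.4%) and for 46.8% of all genes tested. Among protein-coding genes of at least 20 FPKM, 73.5% of 34 members and 51.8% of 3652 genes lay within that range, and the median ratio of the highest to the lowest library was 1.4 for members and 1.77 for all of these genes.

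No member passed the adjusted test: limma with Benjamini-Hochberg adjustment over all 13450 genes called 0 of them (0.0%) and hence 0 members, and a voom fit on the recovered fragments also called 0 genes. At an unadjusted limma p under 0.05, 0 members were higher, where 744 genes (5.53%) were, and 4 members were lower, where 935 genes (6.95%) were. The 4 were Psmd7, Psma4, Psme1 and Psma7. Counting genes whose 3 libraries of one arm all lay beyond the 3 of the other, 5 members were higher (1295 genes, or 9.63%, overall) and 7 were lower (1471 genes, or 10.9%). Each of these shares of the 46 members is near the background, so the counts alone set the family apart in neither direction.

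**Figure D1:**
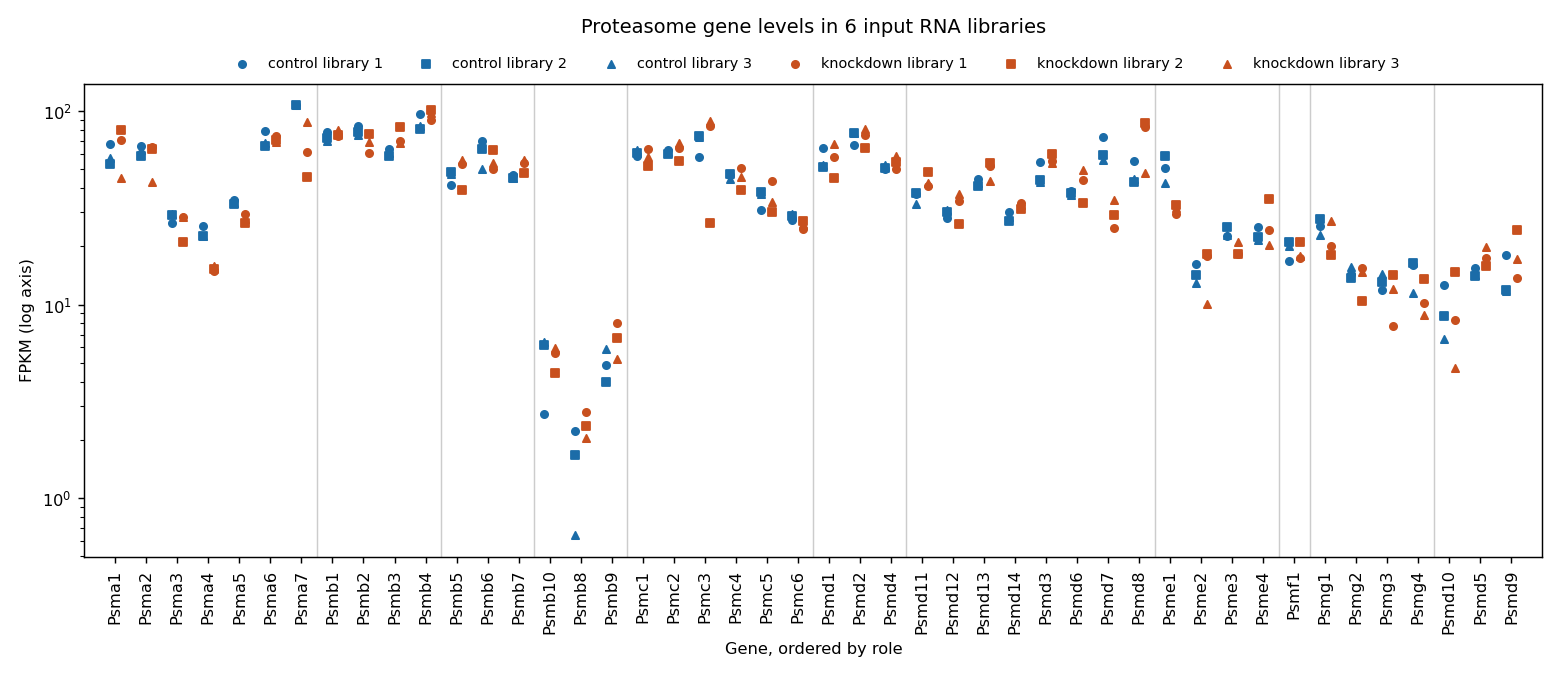
Level of each of the 46 genes (FPKM, log axis) in every input library, blue for control and orange for knockdown, with marker shape giving the library number and vertical lines separating roles. Most genes lie between 10 and 100 FPKM with both arms intermixed; the inducible catalytic genes Psmb8, Psmb9 and Psmb10 lie lowest, and Psmd7, Psma4 and Psme1 are lower in all 3 knockdown libraries.

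The regulatory particle held the member with the largest difference. Psmd7 encodes the lid subunit that pairs with the deubiquitinase Psmd14. Psmd7 stood at 73.2, 59.6 and 55.9 FPKM in control libraries 1 to 3 and at 24.7, 28.9 and 34.7 FPKM in knockdown libraries 1 to 3. Every knockdown library was below every control library, and the control mean was 2.14 times the knockdown mean (62.9 ± 9.11 against 29.4 ± 5.00 FPKM, SD, n = 3). The log2 difference was -1.07 (SE 0.19), the lowest of the 46, with an adjusted p = 0.198 by limma. With library quality weights in limma the adjusted p of Psmd7 was 0.0321, and over the alternatives tried it ran from 0.0321 to 0.729, with a log2 difference from -1.20 to -0.96. The largest of those weights, 3.80 and 3.57, fell on control libraries 2 and 3, the pair most alike. The other libraries had weights from 0.236 to 1.35. With control libraries 2 and 3 averaged, the adjusted p of Psmd7 by limma was 0.727. Psmd14, the deubiquitinase that pairs with it, stood at 29.9, 27.1 and 28.4 FPKM in control and 33.4, 31.3 and 32.6 FPKM in knockdown libraries (log2 difference 0.18, 95% interval -0.15 to 0.51).

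The upstream sequences of Psmd7, Psma4 and Psme1 are shown because these members had the lowest p-values that also have an entry in the RefSeq promoter table (assembly GRCr8). Psma7, the fourth member at an unadjusted p under 0.05, is named only. Each runs 5′ to 3′ over the 250 bases before the annotated start, on the strand of the gene. Psmd7 lies at chr19:52411317-52411566 (minus strand), Psma4 at chr8:64236270-64236519 (plus strand) and Psme1 at chr15:33038721-33038970 (plus strand). Capitals mark matches, on either strand and allowed to overlap, to the 6 motifs searched: TGANNNNGC (core of the antioxidant response element that Nfe2l1 and Nfe2l2 bind), CCAAT (the CCAAT box), CCGGAAG (ETS family), the interferon-stimulated response element (TTTC, any 2 bases, TTTC), TTCNNNGAA (gamma-activated site) and TATAAA (the TATA box).
Psmd7: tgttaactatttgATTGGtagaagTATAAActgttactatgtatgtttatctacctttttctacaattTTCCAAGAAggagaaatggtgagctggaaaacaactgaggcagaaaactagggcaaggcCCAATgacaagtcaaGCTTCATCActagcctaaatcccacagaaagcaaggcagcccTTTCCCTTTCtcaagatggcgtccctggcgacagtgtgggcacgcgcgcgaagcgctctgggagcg
Psma4: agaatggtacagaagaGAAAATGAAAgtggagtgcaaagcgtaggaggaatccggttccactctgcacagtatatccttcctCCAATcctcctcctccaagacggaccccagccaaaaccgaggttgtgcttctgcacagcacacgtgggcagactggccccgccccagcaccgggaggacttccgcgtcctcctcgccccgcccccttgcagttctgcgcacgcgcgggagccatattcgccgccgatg
Psme1: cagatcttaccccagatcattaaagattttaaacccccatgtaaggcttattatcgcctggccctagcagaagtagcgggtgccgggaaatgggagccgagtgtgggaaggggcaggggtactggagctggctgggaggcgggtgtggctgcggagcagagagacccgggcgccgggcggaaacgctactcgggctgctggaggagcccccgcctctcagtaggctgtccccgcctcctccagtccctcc
Psmd7 held a TGANNNNGC match 108 bases before the start, CCAAT matches 237 and 123 bases before it, an interferon-stimulated response element match at 66, a TTCNNNGAA match at 182 and a TATAAA match at 226 bases. Psma4 held a CCAAT match 168 bases and an interferon-stimulated response element match 234 bases before the start, and Psme1 held none of the 6 in this window.

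Over the 42 members with an entry, CCGGAAG was found in 26.2% of windows, beside 7.74% of 27457 windows of all genes in the table. CCAAT was found in 47.6% of members and 34.3% of all windows, TGANNNNGC in 40.5% and 34.6%, the interferon-stimulated response element in 11.9% and 3.29%, TTCNNNGAA in 9.52% and 7.52%, and TATAAA in 9.52% and 13.1%. The members' windows had a median GC content of 56.4%, against 52.0% over all windows. Of the windows shown, Psmd7 had a GC content of 46.4%, Psma4 60.4% and Psme1 63.2%. These matches describe letters and are not measured binding sites.

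The 7 lid genes other than Psmd7 all had a positive log2 difference, and the median over the 8 lid genes was 0.20. The difference between Psmd7 and the rest of the lid was not tested. The highest was that of Psmd8, a lid subunit needed for the lid to dock on the base, at 54.9, 42.9 and 44.5 FPKM in control and 82.7, 87.1 and 47.9 FPKM in knockdown libraries. Knockdown library 3 overlapped the control range, and the log2 difference was 0.56 (95% interval -0.05 to 1.18, adjusted p = 0.43 by limma). Psmd11, a lid scaffold whose level limits 26S assembly in some cells, stood at 37.3, 37.8 and 33.0 FPKM in control and 41.1, 48.5 and 42.6 FPKM in knockdown libraries. The groups did not overlap for Psmd11, with a log2 difference of 0.28 (95% interval -0.08 to 0.64). The remaining lid genes Psmd3, Psmd6, Psmd12 and Psmd13 had means from 31.1 to 51.8 FPKM and log2 differences from 0.12 to 0.26.

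The base was the part of the particle with the smallest differences. The 6 ATPase genes Psmc1 to Psmc6, whose products form the unfolding ring, had log2 differences from -0.22 to 0.02, and the 3 non-ATPase genes from -0.01 to 0.08. Psmc1 stood at 58.6, 60.8 and 62.9 FPKM in control and 64.0, 51.7 and 57.6 FPKM in knockdown libraries. Psmd1, a large scaffold of the base, stood at 64.3, 51.4 and 52.3 FPKM in control and 57.6, 45.3 and 67.5 FPKM in knockdown libraries. In both genes the arms overlapped. Psmc3 varied most, at 57.6, 74.5 and 73.2 FPKM in control and 84.1, 26.4 and 88.3 FPKM in knockdown libraries. Its low value in knockdown library 2 set its negative sign: the log2 difference of Psmc3 was -0.22 (SE 0.45), and 0.34 without that library. Psmc6 was the only base gene whose arms did not overlap (24.5 to 27.1 FPKM after knockdown, 27.3 to 29.5 FPKM in control), with a log2 difference of -0.13.

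In the outer ring of the core, 5 of 7 alpha genes were lower and 2 of them were among the 4 members at an unadjusted p under 0.05. Psma4 stood at 25.6, 22.7 and 22.7 FPKM in control libraries and at 14.9, 15.3 and 15.7 FPKM in knockdown libraries. The arms were tight and apart, and the log2 difference was -0.60 (SE 0.15, adjusted p = 0.272 by limma, and 0.0528 to 0.797 over the alternatives). Psma7 stood at 107.1, 106.9 and 106.7 FPKM in control libraries and at 61.5, 45.8 and 87.9 FPKM in knockdown libraries. The knockdown libraries of Psma7 lay apart from one another but all below control, with a log2 difference of -0.76 (SE 0.25, adjusted p = 0.324 by limma). RefSeq lists 3 further copies or pseudogenes under the name of Psma7 and 3 under that of Psme1, and 52 for 19 of the 46 members in all. The sources used here do not say how reads were shared with such copies, so the levels of those members are uncertain. Psmd7 and Psma4 have none under their names, and copies listed under other symbols were not searched. Psma5 was also lower without overlap (33.2 to 34.6 FPKM in control, 26.5 to 29.5 FPKM after knockdown, log2 difference -0.27), while Psma1, Psma2, Psma3 and Psma6 overlapped and had log2 differences from -0.14 to 0.10.

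No gene of the inner ring reached an unadjusted limma p under 0.05. The non-catalytic beta genes Psmb1 to Psmb4 were the most abundant group, at means of 67.3 to 91.6 FPKM, with log2 differences from -0.20 to 0.26. Psmb3, which stood at 58.5 to 63.7 FPKM in control and 68.1 to 82.6 FPKM after knockdown, was the one among them whose arms did not overlap, and it has 10 copies in RefSeq. The 3 constitutive catalytic genes had log2 differences from -0.13 to 0.20. Psmb5, the chymotrypsin-like subunit, stood at 41.2, 48.2 and 47 FPKM in control and 53.2, 38.9 and 56.0 FPKM in knockdown libraries. Psmb6, the caspase-like subunit, stood at 69.6, 63.7 and 50.0 FPKM in control and 49.9, 62.9 and 53.6 FPKM in knockdown libraries. Psmb7, the trypsin-like subunit, stood at 46.6, 45.3 and 45.1 FPKM in control and 54.1, 47.8 and 55.8 FPKM in knockdown libraries. Of these, Psmb7 alone had arms that did not overlap, with a log2 difference of 0.20 (95% interval -0.15 to 0.54).

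The 14 genes of the constitutive core encode subunits that occur in equal number in the barrel, yet their RNA levels per length spanned 4.70-fold, from 19.5 FPKM for Psma4 to 91.6 FPKM for Psmb4. The 17 genes of the regulatory particle spanned 2.70-fold, from 27.2 FPKM for Psmc6 to 73.5 FPKM for Psmd2. Psma4 had the lowest mean of the core in both arms. Within the lid the order differed between arms: the control mean of Psmd7, 62.9 FPKM, was the highest of the 8 lid genes, and its knockdown mean, 29.4 FPKM, was the lowest, next to Psmd14 at 32.4 ± 1.04 FPKM.

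The inducible catalytic genes were the least abundant members. Psmb9 stood at 4.86, 3.96 and 5.87 FPKM in control and 8.0, 6.69 and 5.25 FPKM in knockdown libraries. Psmb8 stood at 2.23, 1.67 and 0.642 FPKM in control and 2.78, 2.37 and 2.04 FPKM in knockdown libraries, on 11 to 53 fragments per library. Psmb10 stood at 2.71, 6.17 and 6.42 FPKM in control and 5.62, 4.43 and 5.97 FPKM in knockdown libraries, on 31 to 53 fragments. The arms overlapped in all 3 genes, and the log2 differences were 0.37 (95% interval -0.16 to 0.90) for Psmb9, 0.48 (95% interval -0.29 to 1.26) for Psmb8 and 0.12 (95% interval -0.62 to 0.85) for Psmb10. Within each pair that competes for 1 site, the inducible gene gave a minor share of the summed FPKM: Psmb9 gave 7.63 ± 2.52% of the pair with Psmb6 in control and 10.8 ± 2.65% after knockdown, Psmb10 gave 9.98 ± 3.90% and 9.18 ± 0.625% of the pair with Psmb7, and Psmb8 gave 3.28 ± 1.89% and 4.74 ± 1.14% of the pair with Psmb5 (SD, n = 3). The immunoproteasome genes were therefore at a low level in both arms, and their differences were within the spread between libraries.

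Among the alternative caps, Psme1 was lower after knockdown at an unadjusted limma p under 0.05 and its partner Psme2 was not; the difference between them was not tested. Psme1 and Psme2 encode the alpha and beta subunits of PA28, the cap induced by interferon, and RefSeq places 1 gene between them on chromosome 15. Psme1 stood at 50.8, 58.2 and 42.3 FPKM in control libraries and 29.4, 32.8 and 31.5 FPKM in knockdown libraries. All 3 knockdown values were below control (log2 difference -0.66, SE 0.17, adjusted p = 0.279 by limma). Psme2 stood at 16.2, 14.2 and 12.9 FPKM in control and 17.8, 18.2 and 10.1 FPKM in knockdown libraries, with overlap (log2 difference 0.05, 95% interval -0.54 to 0.64). The ratio of Psme1 to Psme2 was 3.14, 4.11 and 3.28 in control libraries and 1.65, 1.80 and 3.12 in knockdown libraries, with knockdown library 3 just below the lowest control.

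Psme3, the nuclear PA28 subunit, stood at 22.5, 25.2 and 23.0 FPKM in control and 18.3, 18.2 and 21.0 FPKM in knockdown libraries, without overlap (log2 difference -0.29, 95% interval -0.64 to 0.07). Psme4, which encodes the cap PA200, stood at 25.2, 22.2 and 21.6 FPKM in control and 24.3, 35.1 and 20.3 FPKM in knockdown libraries, where knockdown library 2 was the high one. Psmf1, whose product PI31 inhibits the core in vitro, had a mean of 19.0 FPKM and a log2 difference of -0.03.

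The chaperones that build the particle stood below most of its subunits, with median levels of 13.4 FPKM for core assembly and 16.1 FPKM for base assembly, beside 61.1 FPKM for the constitutive core. All 4 chaperone genes of core assembly, Psmg1 to Psmg4, were lower, with log2 differences from -0.40 to -0.12, and all 4 overlapped between arms. Psmg4 had the lowest of these, at 16, 16.4 and 11.5 FPKM in control and 10.2, 13.6 and 8.81 FPKM in knockdown libraries (log2 difference -0.40, 95% interval -0.93 to 0.13). Of the base chaperones, Psmd5 stood at 15.4, 14.1 and 14.2 FPKM in control and 17.4, 15.8 and 19.9 FPKM in knockdown libraries, without overlap (log2 difference 0.26, 95% interval -0.11 to 0.63). Psmd9 stood at 18.0, 11.9 and 11.8 FPKM in control and 13.6, 24.2 and 17.3 FPKM in knockdown libraries, with overlap (log2 difference 0.37, 95% interval -0.25 to 0.99). Psmd10 had a mean of 9.29 FPKM and a log2 difference of -0.10. None of the chaperone genes reached an unadjusted limma p under 0.05.

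**Figure D2:**
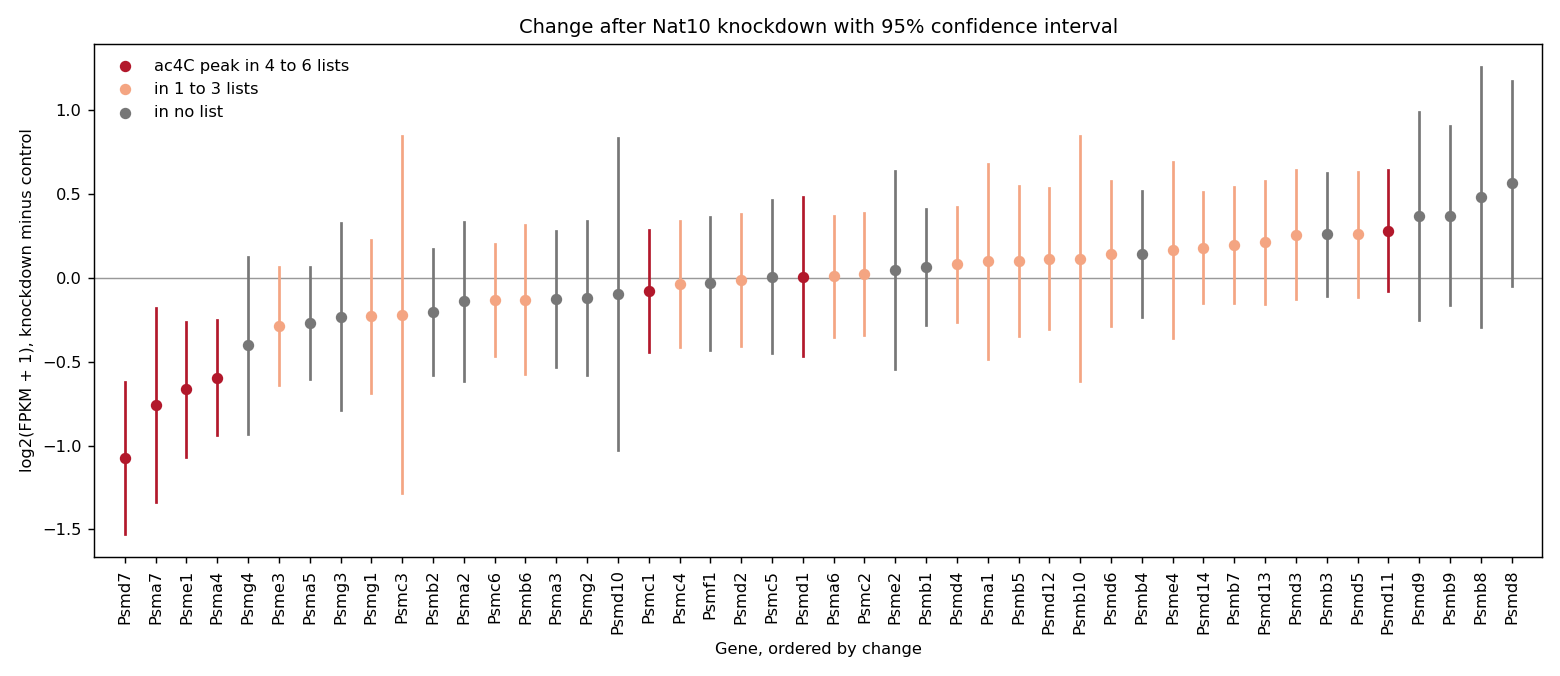
Difference of each gene between arms, knockdown minus control on the log2(FPKM + 1) scale, ordered from lowest to highest, with 95% confidence intervals from the limma fit; colours give the number of ac4C peak lists, of 6, in which the gene has a peak. The intervals of Psmd7, Psma7, Psme1 and Psma4 lie below 0, and all 4 have peaks in 4 to 6 lists.

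The ac4C data were peak lists, 1 per immunoprecipitated library, with a p-value per peak that is the authors' own and no enrichment or depth. In control lists 1 and 2 most peaks shared a single p-value (26881 of 29998 peaks at 0.045 and 27673 of 29593 at 0.046). Those peaks were counted in the lists as deposited and left out in the second count given here and in all statements on single genes. As deposited, 14, 15 and 11 of the 46 members had a peak in control lists 1 to 3, where 41.3%, 40.0% and 22.6% of the 11725 protein-coding genes had one. Without the shared p-values, 10, 10 and 11 members had a peak, where 20.5%, 13.4% and 22.6% of genes had one. In knockdown lists 1 to 3, 13, 7 and 16 members had a peak, where 20.4%, 17.0% and 17.7% of genes had one. Among genes of at least 20 FPKM the shares were 31.0%, 21.9% and 34.0% in the control lists without the shared p-values and 30.0%, 25.7% and 34.5% in the knockdown lists.

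Few members had peaks in every list of an arm. All 3 control lists held 4 members (8.7%), with 7.92% of all genes as deposited and 4.62% without the shared p-values. All 3 knockdown lists held 5 members (10.9%), with 5.13% of genes. At 20 FPKM or more, all 3 control lists held 11.9% of genes as deposited and 10% without the shared p-values. All 3 knockdown lists held 11.4% of genes at that level, so neither member count exceeded it. Psma4, Psma7 and Psmd7 had a peak in all 6 lists, where 2.22% of genes had one (2.52% as deposited). The 3 are 6.52% of all 46 members. Among genes of at least 20 FPKM the share was 5.45% (5.89% as deposited). That class holds 34 members, Psma7 and Psmd7 among them, but not Psma4, at a mean of 19.5 FPKM. No member had peaks in all 3 lists of one arm and in none of the other. For all genes the share was 0.546% with control peaks alone and 0.333% with knockdown peaks alone. At these background shares a count of 0 among 46 members says little, and the height of a peak could not be compared between lists.

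Psmc1, Psmd1 and Psmd11 had a peak in 5 lists, Psme1 in 4, Psmc3 and Psmd2 in 3, and Psmb5, Psmb6, Psmd4, Psme4 and Psmg1 in 2. A further 14 members had a peak in 1 list and 18 in none. Among the last were Psmb1, Psmb2, Psmb3 and Psmb4, the most abundant members as a group. Over all protein-coding genes, peaks in any list were found in 52.7%, and in 68.6% of those of at least 20 FPKM. The 3 inducible catalytic genes had 1 list between them apart from peaks at the shared p-values, knockdown list 2 for Psmb10.

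**Figure D3:**
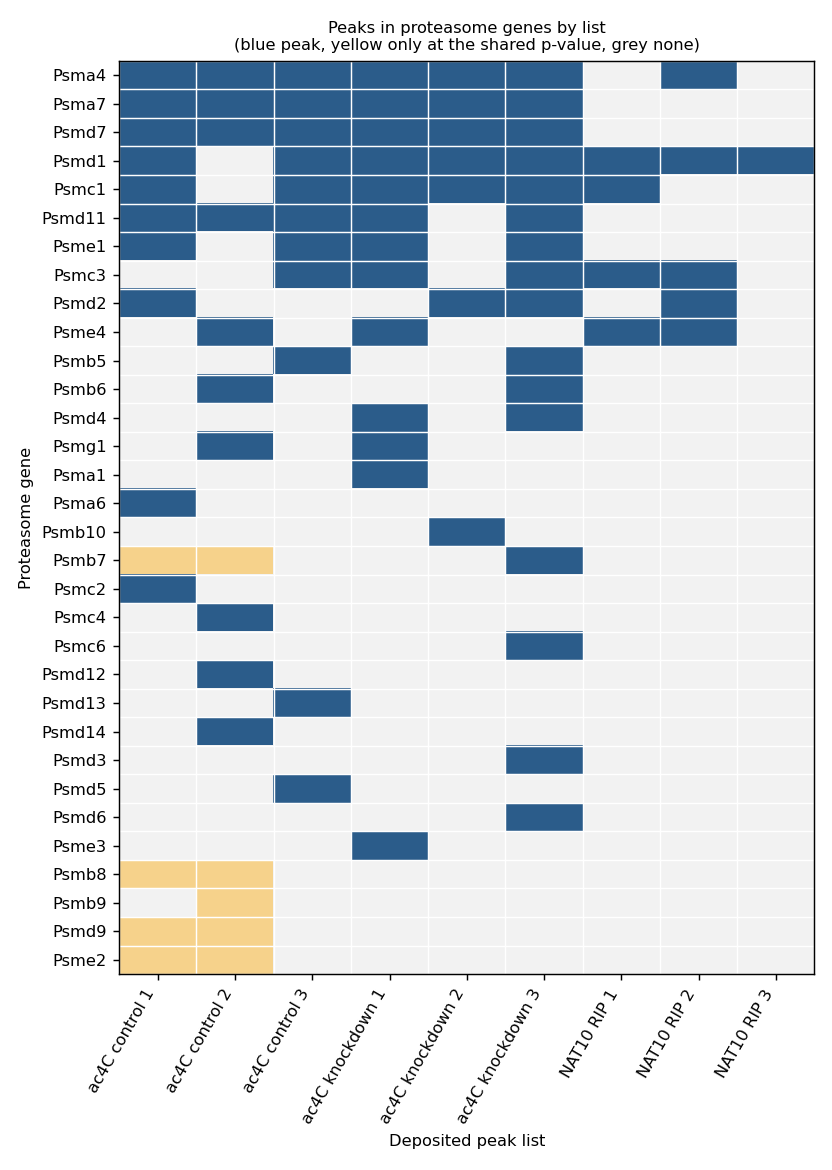
Presence of a deposited peak (blue), of a peak only at the p-value shared by most of the list (yellow) or of none (grey) in the 6 ac4C lists and the 3 NAT10 RIP lists, for each gene with any peak; genes with none are not drawn. Psma4, Psma7 and Psmd7 are blue across all 6 ac4C lists, and Psmd1 is the gene with all 3 NAT10 RIP lists.

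In each of the 7 genes with a peak in 4 to 6 lists, 1 stretch or more lay in a peak of every such list. Coordinates are those of the deposited lists, and the submitters' processing notes name rn6 as the rat build. In Psmd7, 207 bases at chr19:39639903-39640109 (minus strand) lay in a peak of every list. Their deposited p-values were 1e-104, 7.9e-17 and 6.3e-35 in control lists 1 to 3 and 1e-10, 1.7e-08 and 1e-167 in knockdown lists 1 to 3. In Psma4, 120 bases at chr8:59539592-59539711 (plus strand) lay in a peak of every list, and a separate upstream peak appeared in control list 2 and knockdown lists 1 and 3. In Psma7, the longest such run had 164 bases, at chr3:175420069-175420232 (minus strand). Each of these 3 genes, the ones with peaks in all lists, was also lower in knockdown input RNA at an unadjusted p under 0.05.

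Psmd1 had the lowest deposited p-value of the members in each knockdown list, at 1e-102, 1.6e-38 and a listed 0 in lists 1 to 3. In the control lists it had 3.2e-46 in list 1, no peak in list 2 and 2e-31 in list 3, and Psmd7 had lower values in lists 1 and 3. Its 3 stretches shared by 5 lists add up to 269 bases, the longest at chr9:93149188-93149327 (plus strand), and the log2 difference of its input level was 0.01 (95% interval -0.46 to 0.48). In Psmd11, 120 bases at chr10:67856268-67856387 (plus strand) were shared by 5 lists, all except knockdown list 2. In Psme1, 119 bases at chr15:34258829-34258947 (plus strand) were shared by 4 lists, 2 of each arm. In Psmc1, the stretch shared by 5 lists had 31 bases, at chr6:124126945-124126975 (plus strand). Psma6 showed the opposite: a single peak, with a deposited p-value of 1e-114 in control list 1, was found in no other list.

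**Figure D4:**
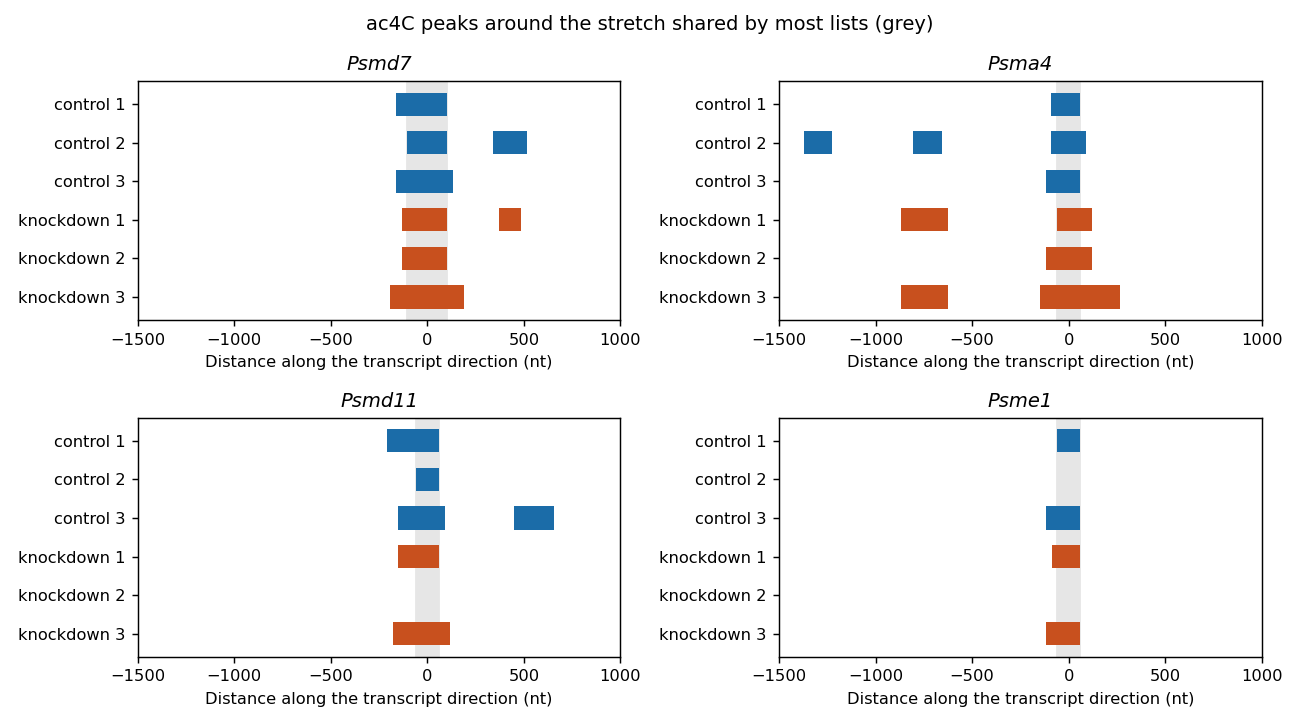
Deposited ac4C peaks of Psmd7, Psma4, Psmd11 and Psme1 in each list, by genomic distance from the centre of the stretch shared by most lists (grey), in nucleotides along the direction of the transcript, with blue for control and orange for knockdown. Peaks of all 6 lists cover the grey stretch in Psmd7 and Psma4, of 5 lists in Psmd11 and of 4 lists in Psme1.

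Set against the input RNA, the 7 members with a peak in 4 to 6 lists included all 4 members that were lower at an unadjusted limma p under 0.05. The 7 had a median log2 difference of -0.60, the 21 members with 1 to 3 lists 0.10 and the 18 without a peak -0.01. The other 3 members of the first group, Psmd11, Psmd1 and Psmc1, did not reach that p, with log2 differences of 0.28, 0.01 and -0.08. Over all protein-coding genes the same grouping gave 12% of 1050 genes lower at that p with 4 to 6 lists. The shares were 7.70% of 5132 genes with 1 to 3 lists and 6.08% of 5543 genes with none. Among genes of at least 20 FPKM these shares were 14.1%, 8.59% and 9.34%. The median level was 46.2 FPKM in the first group of members, 46.2 FPKM in the next and 23.1 FPKM in those without a peak. The grouping of the members was described after their values were seen and was given no test, and the parts of depth and of RNA level in it were not tested.

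NAT10 RIP peaks were sparse. They were present in 4, 5 and 1 members in lists 1 to 3, where 4.95%, 4.77% and 4.62% of genes had one, and in 6 members in any list (6.81% of genes). Among genes of at least 20 FPKM, a level that 34 members reached, the shares were 12.2%, 11.6% and 11.8%, and 16.3% in any list, beside 13.0% of the 46 members. Psmd1 alone was in all 3 lists, where 3.08% of genes were, and Psmc3 and Psme4 joined it in at least 2 lists (4.45% of genes). In Psmd1 the recurring peak spanned chr9:93142572-93144152 in list 1, in 2 blocks with 75 bases in all, and 50 bases were shared by all 3 lists. Its deposited log2 enrichment was 1.49, 1.00 and 1.48 in lists 1 to 3. With all lists pooled, the RIP peaks of Psmd1 overlapped its ac4C peaks by 34 bases, at peak edges only. Of the ac4C peaks, only that of knockdown list 2, from 93144123, reached the recurring RIP peak. Those of control lists 1 and 3 began beyond it, at 93146650 and 93146620. The remaining overlap was with a RIP peak of list 2 alone, from 93152564, where ac4C peaks ended at 93152567. The Psmc3 peaks of lists 1 and 2 shared 75 bases, at log2 enrichments of 1.41 and 1.42, and those of Psme4 shared 125 bases. Psma4, Psmc1 and Psmd2 had a peak in 1 list each, at log2 enrichments of 0.91, 0.77 and 0.99. Psmd7, Psma7 and Psme1, which stood lower after knockdown, had no NAT10 RIP peak.

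The genes around the proteasome were taken from a list of ubiquitin genes, shuttle and unfolding factors, associated deubiquitinases and transcription factors. Of 28 names 26 were tested: 12 were higher and 14 lower, with a median log2 difference of -0.01, and 2 were higher and 3 lower at an unadjusted limma p under 0.05 with 0 at an adjusted one. Ubb, a polyubiquitin gene, had a log2 difference of 0.44 (95% interval -0.11 to 0.99). Nploc4, a cofactor of the unfoldase Vcp, had a log2 difference of 0.49 (adjusted p = 0.304 by limma).

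Nfe2l1, the transcription factor that drives proteasome genes when degradation is impaired, stood at 175.6, 115.2 and 115.0 FPKM in control and 46.8, 75.8 and 87.6 FPKM in knockdown libraries. The arms did not overlap, and the log2 difference was -0.96 (SE 0.29, adjusted p = 0.308 by limma). Ngly1, the glycanase that acts on the Nfe2l1 protein, had a log2 difference of -0.61 (adjusted p = 0.30 by limma), and Ddi2, the protease that cleaves it, of 0.13. Whether these differences bear on the proteasome genes was not tested.

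Of 11 tested genes of the Nfe2l2 antioxidant program, 6 were higher and 5 lower, with 1 in each direction at an unadjusted limma p under 0.05 and 0 at an adjusted one (median log2 difference 0.01). Gclm, a subunit of glutamate-cysteine ligase, had a log2 difference of 0.66 (adjusted p = 0.292 by limma). Nqo1 had the highest value, 0.78, at 264.8, 135.9 and 160.1 FPKM in control and 188.1, 558.0 and 279.9 FPKM in knockdown libraries, with overlap, and Me1 had a value of -0.39. Nfe2l2 itself had a log2 difference of -0.20.

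Of 8 tested genes of antigen processing, which uses peptides the proteasome makes, 5 were higher and 3 lower, with 2 higher at an unadjusted limma p under 0.05 and 0 at an adjusted one (median log2 difference 0.18). The 2 were Tap1, a subunit of the peptide transporter, with a log2 difference of 0.52, and Tapbp, which links that transporter to class I molecules, with 0.66. The lowest were Canx, at -0.32, and Pdia3, at -0.19, both chaperones of the endoplasmic reticulum. Psmb8 and Psmb9, which encode inducible subunits that make such peptides, had an adjusted p = 0.583 and an adjusted p = 0.536 by limma.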

How the data were processed

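RNA was measured in 3 control and 3 knockdown input libraries, grouped and numbered from the sample titles. Expression is in FPKM as deposited by the authors. Tools listed in the submitters' processing notes, with no roles, are DESeq2, HOMER 4.10.4, cutadapt 2.5, featureCounts 1.6.3 and HISAT2 2.1.0; builds listed are rn6, GRCm38 and GRCh38. Per the file headers, the deposited ac4C lists give a p-value per peak, and the NAT10 RIP lists give a p-value and a log2 enrichment. Peak callers, the RIP reference and the peaks' depth were not given in the sources used here, and the library without NAT10 immunoprecipitation was not analysed here. The deposited FPKM held whole fragments for 21401 of 21401 genes above 0 (relative tolerance 1e-07, absolute tolerance 1e-06), which gave each library's depth. The 13450 genes whose mean reached 1 FPKM entered limma 3.58.1 (R 4.3.3) as log2(FPKM + 1), a pseudocount that understates changes of low genes, with a mean-variance trend, two-sided, with Benjamini-Hochberg adjustment at 0.05. The fit was tested on simulated data. A gene had a peak where a deposited peak bore its Ensembl ID.

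Members and gene lists were chosen with earlier results of these data known. Values per library are printed for catalytic and cap genes, the 6 highest and 6 lowest differences, the 8 members with the strongest recurrent peaks and the 2 genes furthest in each direction per partner list. Psmd14 and the ranges of Psma5, Psmb3 and Psmc6, which the rule does not take, were added after their values were seen, as were Ubb, Ngly1, Ddi2, Nfe2l2 and Psma6. Some genes of these lists enter the counts but are not reported here. Promoters come from RefSeq, in which 42 of 46 members matched. Protein sequences and sequences under peaks were not used here.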

Additional observations from a re-analysis of the deposited data

How the results depend on the processing

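Library quality weights changed most: limma then called 335 genes and 1 member (Psmd7), with a median member difference of 0.069. In that fit 3 members were higher and 6 lower at an unadjusted limma p under 0.05. The share of all genes at that p was not counted for the alternative fits, so their member counts have no background. Quantile normalization gave a median of 0.072. Leaving out single input libraries gave 0 to 1 genes called, 0 to 1 members higher (1 without knockdown library 3) and medians from -0.007 to 0.067 (0.067 without knockdown library 2). Dropping both control 1 and knockdown 2, chosen after seeing the data, left 1 member higher and 3 lower. Of the 4 members lower at an unadjusted p under 0.05, Psmd7, Psma4 and Psme1 were so in all 17 fits and Psma7 in 16.

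Changes of single genes were recomputed for the 21 members that the naming rule takes, and signs turned in 5 of them, whose differences were within their error. Psmb10 was -0.088 with weights, from -0.21 (control library 1 left out) to 0.291 over single libraries left out, and -0.102 without both libraries. Psme2 ran from -0.09 to 0.307 (-0.024, -0.073 and -0.09 without control 3, knockdown 1 and knockdown 2, and -0.009 without both). Psme4 ran from -0.045 (knockdown 2 left out) to 0.334. Psmd1 was -0.049, -0.037, -0.011 and -0.124 without control 2, control 3, knockdown 1 and knockdown 3, up to 0.159 without knockdown 2, and -0.043 with control 2 and 3 averaged, an alternative also chosen after seeing the data. Psmc3 was 0.031 with weights, from -0.516 (knockdown 3 left out) to 0.337 (knockdown 2 left out) and 0.219 without both. The cause was not tested.

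Control list 2 held 8 of 46 members (17.4%) at a p of 0.01 or lower, where 12.4% of genes had such a peak. Knockdown list 1 held 7 (15.2%) at or below its median p, where 11% of genes had one. At 20 FPKM or more, these shares of genes were 21.2% and 20.3%. At or below the median p of each RIP list, 1, 1 and 0 members had a peak (2.35%, 2.14% and 2.1% of genes). In all 3 RIP lists 0 members had one (1.48% of genes). At or above its median enrichment, RIP list 2 held 2 members (3.27% of genes). Leaving out single lists gave 4 to 8 members with a peak in all control lists, 5 to 9 in all knockdown lists and 1 to 3 in all RIP lists (3 without list 3). The share of all genes was not counted with single lists left out, so these counts have no background.

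The deviations of same-numbered control and knockdown input libraries from their arm means had correlations of -0.211, -0.284 and 0.179. With 3 libraries per arm, these values cannot decide whether the numbers mark pairs. Pairing of input with immunoprecipitated libraries was not examined. With the replicate number as a block, 0 genes were called, 4 members were lower and the median was 0.009.

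Peak lists without depth cannot show that a transcript lacks ac4C or NAT10 binding, and levels resting on few fragments, as for Psmb8, limit what can be seen.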
